A study of Homo sapiens with 18 samples.

Results

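The genes PHLDA1, PHLDA2, PHLDA3, IER2, IER3 and IER5 were followed in 3 human acute myeloid leukaemia cell lines with and without an inhibitor of the phosphatase SHP2. They are 6 of the 40184 genes in the deposited table, taken by symbol through their Ensembl gene IDs, and all 6 were found. The study is an RNA-seq experiment on 18 cultures in 6 groups of 3 replicates. Molm-14 and MV4-11 are labelled FLT3-ITD, an internal tandem duplication in the receptor tyrosine kinase gene FLT3. SKNO-1 is labelled KIT N822K, a point mutation in the receptor tyrosine kinase gene KIT. Cultures of each line had 24 h in DMSO, the solvent control, or in RMC-4550 at 500 nM, a compound that locks SHP2 in its closed, inactive shape. All cultures were in RPMI with serum, and SKNO-1 alone, with and without drug, also had GM-CSF at 10 ng/mL, so the line and the growth factor cannot be told apart. The labels call the replicates biological without saying what separated them, so the p-values measure only the spread between these cultures. Each line stands for 1 patient's leukaemia.

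SHP2, the product of PTPN11, couples receptor tyrosine kinases to RAS, which drives the kinase cascade that ends in ERK. ERK switches on a first wave of genes within minutes, and several of them encode brakes on the same pathway. The IER genes (immediate early response) were named for this wave, and PHLDA1 is often used as a readout of ERK activity. The PHLDA genes encode small proteins built around a pleckstrin homology-like domain, a fold that can bind membrane phosphoinositides. PHLDA3 competes with the kinase AKT for such lipids and is a target gene of p53. PHLDA2 is an imprinted gene known for restraining growth of the placenta. IER2 and IER5 are short nuclear proteins, and IER5 acts on the heat shock factor HSF1. IER3, also called IEX-1, is a short-lived protein induced by growth factors and NF-kB that affects cell survival. Cultures were taken at 24 h only, so the first minutes were not sampled and later change cannot be seen.

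The response to RMC-4550 split the 6 genes. PHLDA1 fell in Molm-14 and MV4-11, PHLDA2 fell in MV4-11 and SKNO-1, IER3 fell in SKNO-1, and PHLDA3 and IER5 rose in Molm-14. IER2 was called in no line. In Molm-14, 2 of the 6 were called higher and 1 lower, where 21.5% and 25.2% of all genes tested were called higher and lower. Over only 6 genes, these counts are near the shares of all genes. In MV4-11, 0 were higher and 2 lower, against 5.85% and 8.03% of all genes. In SKNO-1, 0 were higher and 2 lower, against 10.8% and 16.2%. A call is an adjusted p under 0.05 in limma, with Benjamini-Hochberg adjustment over all genes tested in the comparison, and levels are in CPM, which are reads after scaling libraries to 1 common size. Drugged and undrugged libraries were fully separated for 3 members in Molm-14, where 60.0% of all genes were, for 2 in MV4-11 (24.6% of genes) and for 3 in SKNO-1 (62.0%). The counts in Molm-14 and SKNO-1 do not exceed these shares, so separation there does not set the members apart. These are bulk cultures, in which fewer cells that make a transcript and less of it per cell cannot be told apart.

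Libraries held 17434810 to 19959917 reads. In 14 libraries 5.07% to 7.02% of the reads came from mitochondrial genes, and in 4 the share was 10.52% to 15.02%. These 4 were replicate 2 of Molm-14 with RMC-4550, replicates 1 and 3 of MV4-11 with DMSO and replicate 1 of MV4-11 with RMC-4550. They are called the high-mitochondrial libraries here, and their part in each result was not tested beyond the values given. Of 10 myeloid markers, Molm-14 had 7 at 1 CPM or more in at least 3 libraries, MV4-11 had 8 and SKNO-1 had 9, with SPI1 at 211 CPM or more everywhere. CD34 never passed 0.226 CPM, and of T cell markers CD3E, CD3D, CD8A and CD2 stayed at or below 0.598 CPM, while CD4, which monocytic cells also express, was at 110 to 587 CPM. PTPN11, the gene of the drug's target, fell by 1.00 in Molm-14 and 0.64 in SKNO-1 on the log2 scale (limma adjusted p 0.0013 and 0.037), and its -0.30 in MV4-11 was not called (adjusted p 0.42). The lowest treated Molm-14 value, 84.9 CPM, was in the high-mitochondrial library.

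**Figure D1:**
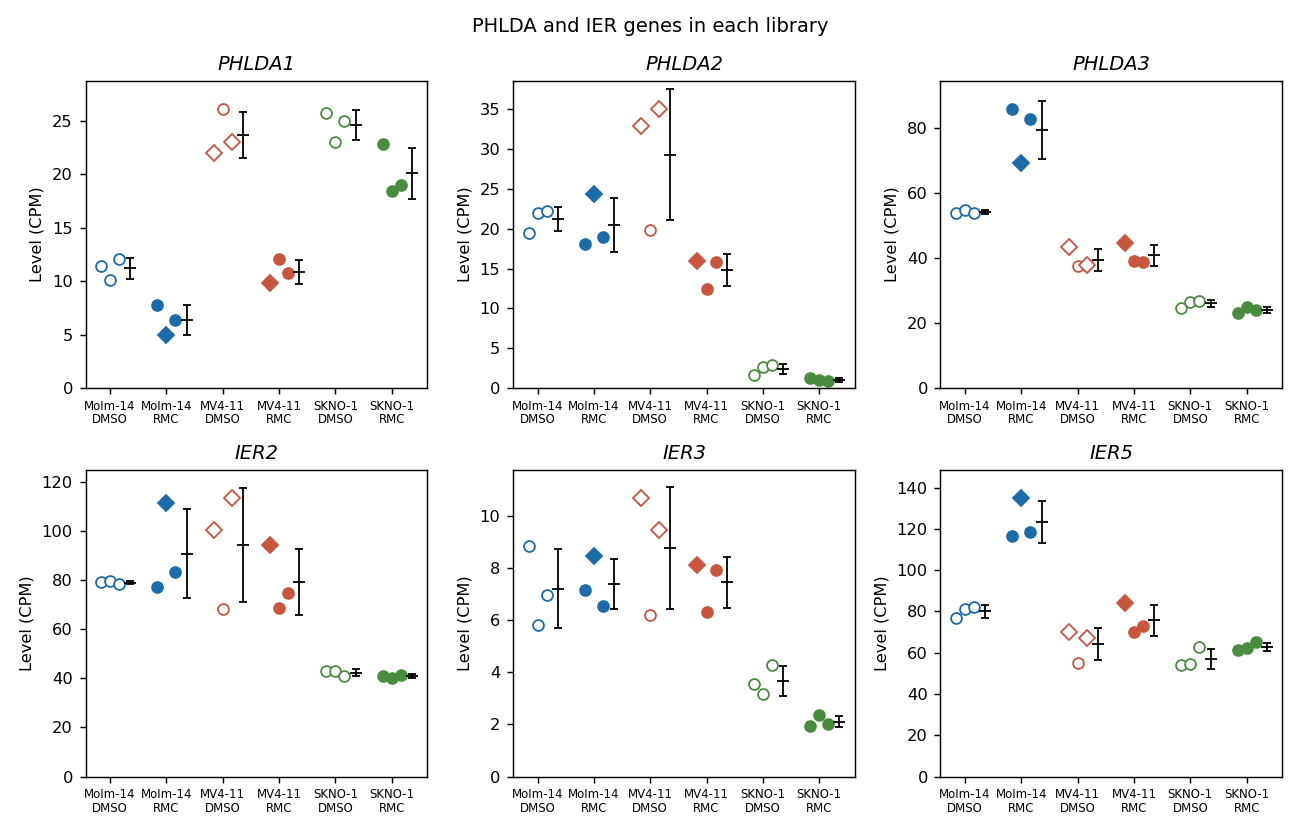
Level of each gene in CPM (y axes, from 0) in each of the 18 libraries, grouped on the x axis by line and treatment (RMC is RMC-4550); open symbols are DMSO, filled symbols RMC-4550, diamonds the 4 high-mitochondrial libraries, and bars the mean and SD of 3 libraries. PHLDA1 drops in both FLT3-ITD lines, PHLDA2 sits far lower in SKNO-1 than elsewhere, and PHLDA3 and IER5 are raised in treated Molm-14.

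PHLDA1 (ENSG00000139289, GRCh38 chromosome 12, 76025447 to 76033932, minus strand), the member often used as an ERK readout, stood lower in undrugged Molm-14 than in either other line. In Molm-14 with DMSO it was read at 11.4, 10.15 and 12.1 CPM in replicates 1 to 3, and with RMC-4550 at 7.76, 5.00 and 6.39 CPM. In MV4-11 it went from 22.01, 26.1 and 23.04 CPM to 9.82, 12.05 and 10.8 CPM. In both lines every treated library lay below every DMSO library, and treated MV4-11 came down to about the level of undrugged Molm-14. The log2 change was -0.83 (SE 0.15, limma adjusted p 0.00027) in Molm-14 and -1.12 (SE 0.15, adjusted p 7.5e-05) in MV4-11. Only 0.746% of the genes tested in MV4-11 had a lower value, against 10.1% in Molm-14. Both calls held without any single library. Among the libraries with a low mitochondrial share the change was -0.66 in Molm-14 and -1.20 in MV4-11, and among the MV4-11 libraries with a high share it was -1.19. Such values set 1 DMSO library against 2 treated ones in MV4-11, or 2 against 1, and carry no test.

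In SKNO-1, PHLDA1 stood at 25.8, 23.08 and 25.05 CPM with DMSO and 22.9, 18.4 and 18.99 CPM with drug. The groups did not overlap, but the log2 change of -0.30 (95% interval -0.61 to 0.01) was not called (limma adjusted p 0.15). It was called in a fit of the SKNO-1 libraries alone (-0.30), where 8451 of 14670 genes were called. It was also called with mitochondrial share as a covariate (-0.28), where 7270 were, against 3969 in the reported fit. Without the high-mitochondrial libraries it was -0.30. The change in SKNO-1 was 0.68 higher on the log2 scale than the mean change of the FLT3-ITD lines (SE 0.18, 95% interval 0.30 to 1.06, limma adjusted p 0.045). That difference was called for 3.80% of genes, and PHLDA1 was the only member among them. The call was narrow, being lost on leaving out any of 15 of the 18 libraries, with differences from 0.58 to 0.75 and adjusted p from 0.014 to 0.15. Molm-14 and MV4-11 differed by 0.30 in their PHLDA1 change (interval -0.14 to 0.73, adjusted p 0.29), which was called with the mitochondrial share as a covariate (0.58).

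PHLDA2 (ENSG00000181649, chromosome 11, 2928273 to 2929455, minus strand), the imprinted growth restrainer, was called lower in MV4-11 and SKNO-1. MV4-11 with DMSO gave 32.98, 19.9 and 35.07 CPM, and with RMC-4550 16, 12.45 and 15.9 CPM. The DMSO libraries were spread widely, with replicates 1 and 3, both high-mitochondrial, well above replicate 2, and all treated libraries were lower than any of them. SKNO-1 gave 1.66, 2.62 and 2.92 CPM without drug and 1.30, 0.974 and 0.828 CPM with it, which is 36 to 62 reads against 18 to 28. The log2 change was -0.95 in MV4-11 (SE 0.24, limma adjusted p 0.014) and -1.18 in SKNO-1 (SE 0.24, adjusted p 0.0015). The SKNO-1 call held without any single library. In MV4-11 the call did not survive leaving out DMSO replicate 1 (-0.85), DMSO replicate 3 (-0.80) or RMC-4550 replicate 2 (-0.83). It was also lost in a fit of that line alone and on dropping the high-mitochondrial libraries (-0.50, adjusted p 0.22). Among the MV4-11 libraries with a low mitochondrial share the change was -0.50, and among those with a high share -1.09.

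In Molm-14, PHLDA2 was read at 19.5, 21.97 and 22.3 CPM with DMSO and 18.04, 24.3 and 19 CPM with drug. The groups overlapped and the log2 change was -0.06 (interval -0.57 to 0.44, limma adjusted p 0.84). The difference between the Molm-14 and MV4-11 changes was 0.89 (interval 0.17 to 1.60) and was not called (adjusted p 0.074). It was called without replicate 2 of MV4-11 with DMSO (1.15), with log2(CPM + 1) and with voom weights. Neighbours of PHLDA2 in the imprinted stretch of chromosome 11 gave other patterns. CDKN1C, an inhibitor of cyclin-dependent kinases was called higher in all 3 lines, with log2 changes of 2.84 (Molm-14), 0.70 (MV4-11) and 0.65 (SKNO-1) and limma adjusted p of 4.0e-08, 0.03 and 0.024. SLC22A18, a membrane transporter gene, rose in Molm-14 only by call (0.94, adjusted p 0.00065), and NAP1L4, a histone chaperone gene, fell by 0.25 in Molm-14 and 0.22 in SKNO-1.

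PHLDA3 (ENSG00000174307, chromosome 1, 201464383 to 201469237, minus strand), the p53 target that competes with AKT, rose in Molm-14. DMSO libraries were tight at 53.9, 54.7 and 53.9 CPM, and treated ones were at 85.9, 69.2 and 82.97 CPM. All treated libraries were above all DMSO libraries, and the lowest of them was the high-mitochondrial replicate 2. The log2 change was 0.54 (SE 0.09, limma adjusted p 0.00022), and it was 0.64 among the libraries with a low mitochondrial share. In MV4-11 the gene went from 39.5 ± 3.35 to 40.8 ± 3.38 CPM (SD, n = 3) and in SKNO-1 from 26.0 ± 1.16 to 24.0 ± 0.96 CPM, with overlapping libraries. Those log2 changes were 0.05 (interval -0.15 to 0.24) and -0.12 (-0.31 to 0.08), so a rise of the Molm-14 size lay outside both intervals. The change in Molm-14 exceeded that in MV4-11 by 0.50 (SE 0.13, limma adjusted p 0.017), a difference called for 19.5% of genes and for no other member. It was lost without replicate 1 of MV4-11 with DMSO (0.43), with no filter on low values and in a fit of both lines alone (0.50 each). SKNO-1 against the mean of the FLT3-ITD lines gave -0.41 for PHLDA3 (adjusted p 0.06), short of a call, and became one on dropping the treated Molm-14 replicate 2 (-0.46) or the DMSO MV4-11 replicate 1 (-0.45).

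IER2 (ENSG00000160888, chromosome 19, 13150415 to 13154908, plus strand), a nuclear protein of the immediate early wave, had no call. Molm-14 with DMSO was at 79.2, 79.5 and 78.2 CPM and with drug at 77.3, 111.3 and 83.4 CPM. MV4-11 was at 100.4, 68.4 and 113.5 CPM and with drug at 94.2, 68.6 and 74.8 CPM. In both lines the high-mitochondrial libraries were the highest of their group. SKNO-1, which has no such library, was at 43.04, 43.05 and 40.9 CPM without and 40.99, 39.99 and 41.5 CPM with drug. The log2 changes were 0.18 for Molm-14, -0.23 for MV4-11 and -0.05 for SKNO-1 (limma adjusted p 0.38, 0.41 and 0.85). Their 95% intervals ran from -0.17 to 0.53, from -0.58 to 0.12 and from -0.40 to 0.30. IER2 was called lower in MV4-11 without replicate 2 with DMSO (-0.44), and the sign turned to 0.07 without the high-mitochondrial libraries. The Molm-14 change exceeded that of MV4-11 by 0.41 (interval -0.08 to 0.90, adjusted p 0.2), called only without replicate 2 of MV4-11 with DMSO (0.63) among the single libraries. In SKNO-1 the sign turned under median-ratio scaling (0.01) and quantile normalization (0.08).

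IER3 (ENSG00000137331, chromosome 6, 30743199 to 30744554, minus strand), the survival-linked NF-kB and growth factor target, fell in SKNO-1. Its level there went from 3.55, 3.17 and 4.285 CPM to 1.94, 2.37 and 2.02 CPM, or from 69 to 91 reads per library down to 42 to 51. All treated libraries were below all DMSO libraries. The log2 change was -0.78 (SE 0.21, limma adjusted p 0.01), and the call was lost without replicate 3 with DMSO (-0.67). In Molm-14 the gene went from 7.21 ± 1.52 to 7.39 ± 0.97 CPM (SD, n = 3), and in MV4-11 from 8.78 ± 2.33 to 7.46 ± 0.99 CPM, with overlap in both. The log2 changes of 0.05 and -0.21 (adjusted p 0.86 and 0.59) had intervals from -0.39 to 0.49 and from -0.65 to 0.24. The MV4-11 value was 0.19 among the libraries with a low mitochondrial share and -0.31 among those with a high share. The response of SKNO-1 differed from the mean of the other lines by -0.71 (interval -1.25 to -0.16), which was not called (adjusted p 0.17). A covariate for mitochondrial share made it a call (-0.73), as did dropping the high-mitochondrial libraries (-0.86).

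IER5 (ENSG00000162783, chromosome 1, 181088712 to 181092899, plus strand), the HSF1 regulator, was the member with the largest rise in Molm-14. Its DMSO libraries were at 76.6, 81.2 and 82.1 CPM and its treated libraries at 116.3, 135.1 and 118.3 CPM, with no overlap. The log2 change was 0.62 (SE 0.10, limma adjusted p 0.00014), or 1.54-fold, and it was 0.55 among the libraries with a low mitochondrial share. MV4-11 moved from 70.1, 55.2 and 67.2 CPM to 84.3, 69.8 and 73.03 CPM, with the treated replicate 2 just below the DMSO replicate 1. SKNO-1 moved from 53.9, 54.5 and 62.5 CPM to 61.3, 62.4 and 65.2 CPM, again with overlap. These log2 changes of 0.24 and 0.15 were not called (adjusted p 0.14 and 0.31). Without the high-mitochondrial libraries they were 0.37 and 0.15, where MV4-11 with DMSO keeps 1 library that is assumed to vary like the other groups. With the mitochondrial share as a covariate only the MV4-11 change was called (0.34). In MV4-11 that setting called 5054 of 14739 genes, against 2045 in the reported fit. The difference between Molm-14 and MV4-11 was 0.38 (interval 0.07 to 0.68, adjusted p 0.074), and it was called without replicate 2 of MV4-11 with DMSO (0.48) or replicate 1 of MV4-11 with RMC-4550 (0.46).

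IER5L, the sequence relative of IER5, moved in Molm-14 with it. It went from 16.7 ± 0.62 to 27.8 ± 1.70 CPM there (SD, n = 3), a log2 change of 0.73 (limma adjusted p 0.00069). Its changes of -0.03 in MV4-11 and -0.16 in SKNO-1 were not called (adjusted p 0.91 and 0.47). The MV4-11 value was 0.32 among the libraries with a low mitochondrial share and -0.21 among those with a high share, with no test. The start regions of IER5 and IER5L are shown because both genes rose in Molm-14, and that of IER2 because IER2 was called in no line. RefSeq promoter windows (GRCh38.p14) were at hand for PHLDA1, IER2 and IER5, 3 of the 6 members, and for IER5L. The bases below lie before the annotated start and are written 5′ to 3′ on the gene's strand. Capitals mark GAANNTTC (an inverted pair of units of the heat shock element), CCAAT or its complement ATTGG (the box bound by NF-Y), TATATAA (a box of the kind TBP binds) and CCGGAAG or its complement CTTCCGG (an ETS-type site).
IER5, chr1:181088450-181088699, plus strand: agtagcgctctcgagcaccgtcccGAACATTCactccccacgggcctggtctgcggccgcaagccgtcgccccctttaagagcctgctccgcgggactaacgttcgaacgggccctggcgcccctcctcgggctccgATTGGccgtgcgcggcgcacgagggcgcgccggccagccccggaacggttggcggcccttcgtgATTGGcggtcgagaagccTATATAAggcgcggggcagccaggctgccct
IER5L, chr9:129178263-129178511, minus strand: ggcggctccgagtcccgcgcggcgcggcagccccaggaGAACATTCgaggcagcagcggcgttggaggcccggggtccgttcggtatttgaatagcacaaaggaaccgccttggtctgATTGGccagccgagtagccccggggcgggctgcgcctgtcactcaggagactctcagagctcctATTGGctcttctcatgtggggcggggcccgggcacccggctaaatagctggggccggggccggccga
IER2, chr19:13150161-13150410, plus strand: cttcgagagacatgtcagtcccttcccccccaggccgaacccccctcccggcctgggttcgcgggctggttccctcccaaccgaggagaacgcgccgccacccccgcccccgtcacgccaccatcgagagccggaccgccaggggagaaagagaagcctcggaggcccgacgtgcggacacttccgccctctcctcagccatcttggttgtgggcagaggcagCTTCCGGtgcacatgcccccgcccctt

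The letters GAACATTC stood once in the IER5 window and once in that of IER5L, and GAANNTTC was found in neither the IER2 nor the PHLDA1 window. The PHLDA1 window lies inside an exon of a longer GENCODE 29 transcript and is not shown. Of 35116 windows of 250 bases before a start, 5.78% held GAANNTTC on either strand. The IER5 and IER5L windows each held CCAAT 2 times, and 32% of all windows held it at least once. TATATAA was in that of IER5 (2.42% of windows) and CCGGAAG in that of IER2 (8.52%). Also searched on both strands were TGANTCA (AP-1, 6.57%), TGACGTCA (the cyclic AMP element, 1.65%), GCGTGGGCG (EGR factors, 0.720%) and the CArG box (serum response factor, 1.16%). None of these was in the 4 windows. The motifs do not overlap one another in the bases shown. A match describes letters and not a site that was bound.

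**Figure D2:**
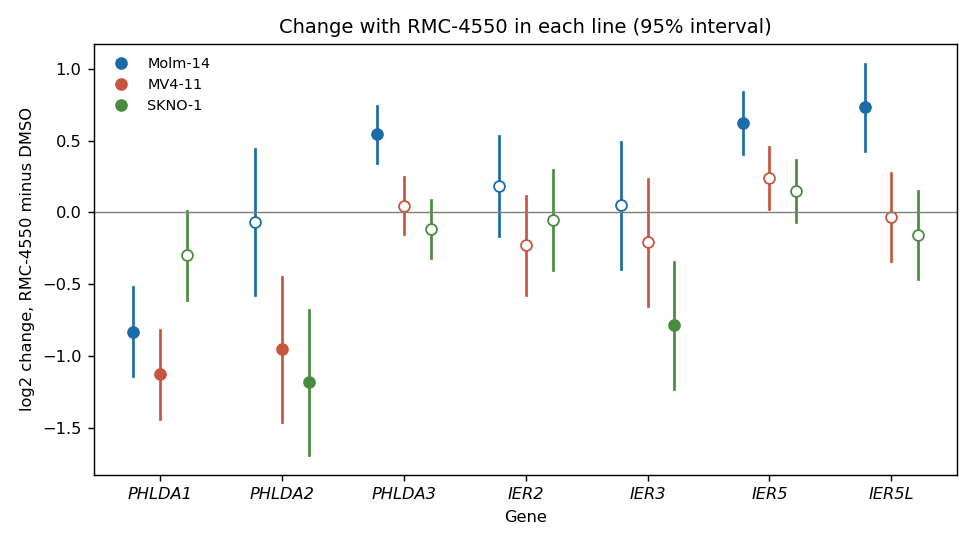
The log2 change with RMC-4550 (y axis, RMC-4550 minus DMSO) of the 6 genes and IER5L (x axis) in each line, as points with 95% intervals from limma; filled points were called. The points of PHLDA1 and PHLDA2 lie below 0 in all 3 lines, but the intervals of PHLDA2 in Molm-14 (at -0.06) and PHLDA1 in SKNO-1 cross 0. PHLDA1 was called in Molm-14 and MV4-11, and PHLDA2 in MV4-11 and SKNO-1. The Molm-14 points of PHLDA3, IER5 and IER5L lie at 0.54, 0.62 and 0.73.

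Without drug, SKNO-1 had on average the lowest level of every member except PHLDA1. Molm-14 had the highest PHLDA3 and IER5, and the lowest PHLDA1. Of the 6 members, 6 were called different between SKNO-1 and Molm-14, where 65.2% of genes were. Between SKNO-1 and MV4-11 it was 4 (41.6% of genes), and between Molm-14 and MV4-11 it was 3 (54.1%). The count of 3 is near its share, and the other counts are above theirs, over only 6 genes. MV4-11 with DMSO includes 2 high-mitochondrial libraries.

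PHLDA2 had the widest range between lines. MV4-11 had 29.3 ± 8.23 CPM, Molm-14 21.3 ± 1.52 and SKNO-1 2.40 ± 0.66 (SD, n = 3, DMSO). SKNO-1 was 9.02-fold under Molm-14 and 12.1-fold under MV4-11 (log2 differences -3.17 and -3.60, limma adjusted p 6.2e-09 and 5.9e-09). Molm-14 and MV4-11 overlapped and were not called apart (-0.42, interval -0.93 to 0.08, adjusted p 0.14). Leaving out replicate 2 of MV4-11 made that difference a call (-0.68).

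PHLDA1 put SKNO-1 in another place. SKNO-1 at 24.6 ± 1.40 CPM and MV4-11 at 23.7 ± 2.15 CPM were not called apart (0.06, interval -0.25 to 0.37, limma adjusted p 0.77), and the sign turned with the mitochondrial covariate (-0.20). Molm-14, at 11.2 ± 0.98 CPM, was under MV4-11 by 1.08 and under SKNO-1 by 1.14 on the log2 scale (adjusted p 1.4e-05 and 3.7e-06). For PHLDA3 all neighbours in the order were called apart, falling from 54.2 ± 0.49 CPM (Molm-14) through 39.5 ± 3.35 (MV4-11) to 26.0 ± 1.16 (SKNO-1). The steps were 0.46 and 0.60 on the log2 scale (adjusted p 0.0007 and 0.0001).

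IER2 stood at 94.1 ± 23.2 CPM in MV4-11 and 78.95 ± 0.70 in Molm-14, which overlapped, and at 42.3 ± 1.26 in SKNO-1. SKNO-1 was lower by 1.12 than MV4-11 and by 0.90 than Molm-14 on the log2 scale (limma adjusted p 5.3e-05 and 0.00015). IER3 had the same order, at 8.78, 7.21 and 3.67 CPM, with differences of -1.23 and -0.96 for SKNO-1 (adjusted p 0.00023 and 0.00072) and no call between the FLT3-ITD lines (-0.27, adjusted p 0.29). Those lines were called apart for IER2 (-0.44) and IER3 (-0.50) without replicate 2 of MV4-11. Without the high-mitochondrial libraries, where that replicate is the only MV4-11 DMSO library, IER2 was called the other way (0.21, limma adjusted p 0.025). IER5 differed less, with 79.98 ± 2.94 CPM for Molm-14, 64.1 ± 7.88 for MV4-11 and 56.96 ± 4.83 for SKNO-1. Molm-14 was above MV4-11 by 0.33 (adjusted p 0.014) and above SKNO-1 by 0.49 on the log2 scale, while MV4-11 and SKNO-1 were not called apart (-0.17, adjusted p 0.2). Without replicate 2 of MV4-11, the IER5 call between the FLT3-ITD lines was lost (0.22) and that between SKNO-1 and MV4-11 was gained (-0.27). Quantile normalization also ended the first of these calls (0.17).

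Levels of different genes can be set side by side only per length, here CPM per kilobase of the longest GENCODE 29 transcript. On that scale Molm-14 with DMSO had IER2 at 26.9 ± 0.24, PHLDA2 at 22.3 ± 1.60, PHLDA3 at 20.52 ± 0.18 and IER5 at 19.1 ± 0.70 (SD, n = 3). IER3 followed at 5.34 ± 1.13 and PHLDA1 at 1.39 ± 0.12. PHLDA2, near the top in Molm-14, was at 2.51 ± 0.69 in SKNO-1, beside IER3 at 2.72 ± 0.42 and PHLDA1 at 3.05 ± 0.17, and the spreads of these 3 touch. The PHLDA1 transcript used, of 8069 bases, is much longer than that of PHLDA2, of 955. The annotation has antisense genes over PHLDA1, IER2 and IER3 and a same-strand non-coding gene over PHLDA3, and whether the counting used strand was not given in the sources used here, so reads could be shared there.

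**Figure D3:**
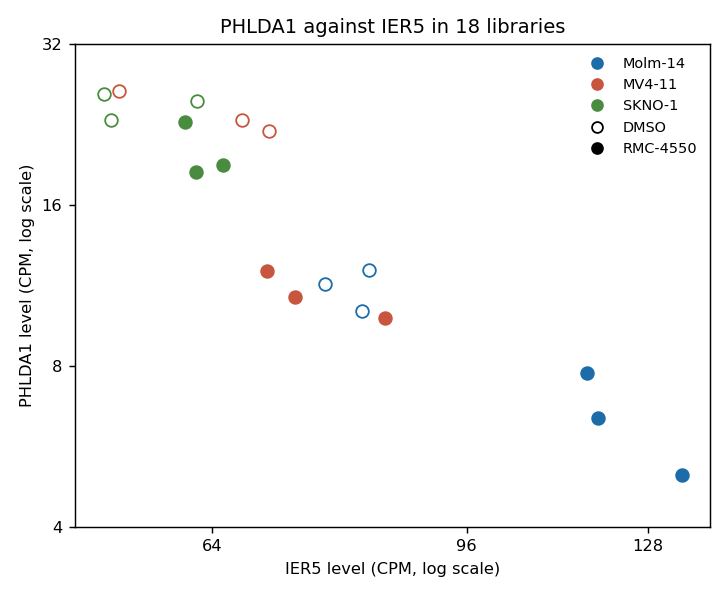
PHLDA1 level (y axis, CPM, log scale) against IER5 level (x axis, CPM, log scale), 1 point per library, coloured by line, open for DMSO and filled for RMC-4550. SKNO-1 and undrugged MV4-11 sit at the upper left and treated Molm-14 at the lower right.

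The members did not vary as 1 block over the libraries. PHLDA1 ran against the others, most of all against IER5, with Pearson r = -0.93 across the 18 libraries on the log2 scale. PHLDA2, IER2 and IER3 ran together (r = 0.94 for PHLDA2 with IER2, 0.96 for PHLDA2 with IER3 and 0.92 for IER2 with IER3). These are descriptions over libraries that share line, treatment and mitochondrial share, and not tests. Among 11028 genes with a mean of at least 5 CPM, those most like each member were found by the same r. For PHLDA1 they were DENND3, RP2 and XRCC1 (0.94, 0.94 and 0.93), and for PHLDA2 DMPK, CTTN and GABBR1 (0.98 each). For PHLDA3 they included PNRC1 and ZFYVE27 (0.99 and 0.98), and for IER2 they were RPL27A, PSMG2 and PTGES3L (0.97 each). IER3 had DMPK, PHLDA2 and ZNF600 (0.97, 0.96 and 0.95), and IER5 had ZNF467, NFKBIA and SEC31B (0.98, 0.97 and 0.97).

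The pathway genes around the 6 members were counted by list. Of 16 ERK output genes, which include feedback inhibitors and ERK-driven transcription factors, 13 of 14 tested were called lower and 1 higher in Molm-14. In MV4-11 it was 6 of 13 lower and 0 higher, and in SKNO-1 8 of 11 lower and 2 higher. Over all genes tested, 25.2% were called lower and 21.5% higher in Molm-14. Those shares were 8.03% and 5.85% in MV4-11 and 16.2% and 10.8% in SKNO-1. The list's median log2 change was -1.18, -0.91 and -1.30 in these lines in that order, where the median of all genes tested was -0.06, -0.01 and -0.05. ETV4, an ETS factor, fell the most of those called in all 3 lines, with log2 changes of -3.47, -1.63 and -3.28. FOSL1, an AP-1 subunit, DUSP6, an ERK phosphatase, and SPRED2, a RAS pathway inhibitor, also fell in each line. PHLDA1 changed by -0.83 and -1.12 in the FLT3-ITD lines and by -0.30 in SKNO-1, each within the range of the list. Its value lay above the list median in SKNO-1 and Molm-14 and below it in MV4-11.

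The immediate early list, to which the IER genes belong by name, did not share that direction. In Molm-14, 6 of 25 tested were called higher and 5 lower, in MV4-11 1 of 26 higher and 0 lower, and in SKNO-1 3 of 25 higher and 1 lower. The Molm-14 counts are close to the shares of all genes given above (21.5% higher and 25.2% lower). Medians were 0.19, -0.11 and 0.07. TRIB1, a pseudokinase gene, rose in all 3 lines (0.62, 0.99 and 0.50). In Molm-14 MYC fell by 1.71 and NR4A1, a nuclear receptor, by 1.23, and in SKNO-1 EGR3, a zinc finger factor, fell by 2.40 and KLF4 rose by 0.57. MYC (0.58 and -0.86) and NR4A1 (-0.43 and -0.48) were not called in MV4-11 and SKNO-1. IER2, with changes from -0.23 to 0.18, sat among the uncalled genes of this list.

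PHLDA3 rose in Molm-14 while other p53 targets mostly did not. Of 20 tested there, 9 were called lower and 1 higher, with 3 lower in MV4-11 and 10 lower in SKNO-1 and 0 higher in either. Over all genes, 25.2%, 8.03% and 16.2% were called lower and 21.5%, 5.85% and 10.8% higher in these lines in that order. The list medians were -0.22, -0.23 and -0.35. The 1 called higher in Molm-14 was TP53INP1 (0.62). SESN1, a stress-response gene, fell in all 3 lines (-0.19, -0.26 and -0.66). GDF15, a secreted stress cytokine, fell in Molm-14 and MV4-11 (-1.93 and -1.28), and DDB2, a DNA damage sensor, in MV4-11 and SKNO-1 (-0.57 and -0.53). AEN, a nuclease gene, and FAS, a death receptor, fell in Molm-14 (-1.14 and -0.50) and SKNO-1 (-1.09 and -1.07).

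IER5 rose in Molm-14 while HSF1-linked heat shock genes fell. Of 14 tested, 11 were called lower and 1 higher in Molm-14, with 4 of 15 lower in MV4-11 and 6 of 15 lower in SKNO-1. Over all genes, 25.2%, 8.03% and 16.2% were called lower in these lines in that order. The list medians were -0.96, -0.12 and -0.47. HSP90AA1, the inducible cytosolic chaperone, fell from 903 ± 14.8 to 424 ± 40.1 CPM in Molm-14 (SD, n = 3; log2 change -1.10, limma adjusted p 2.9e-07), and by 0.57 in MV4-11 and 0.96 in SKNO-1. HSPE1, CHORDC1 and AHSA1, a mitochondrial chaperonin subunit and cochaperones of HSP90, fell in all 3 lines too. For IER3, the NF-kB list gave 4 higher and 4 lower of 15 in Molm-14, close to the shares of all genes (21.5% and 25.2%). It gave 2 and 4 of 16 in MV4-11 (shares 5.85% and 8.03%) and 1 and 3 of 17 in SKNO-1 (10.8% and 16.2%). The list medians were 0.07, 0.05 and -0.25. TNF, an inflammatory cytokine gene, fell in each line (-2.26, -2.20 and -3.08), as did TNFAIP3, a brake on NF-kB (-0.78, -0.45 and -0.81), while TNFAIP2 rose (1.16, 0.54 and 0.58).

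**Figure D4:**
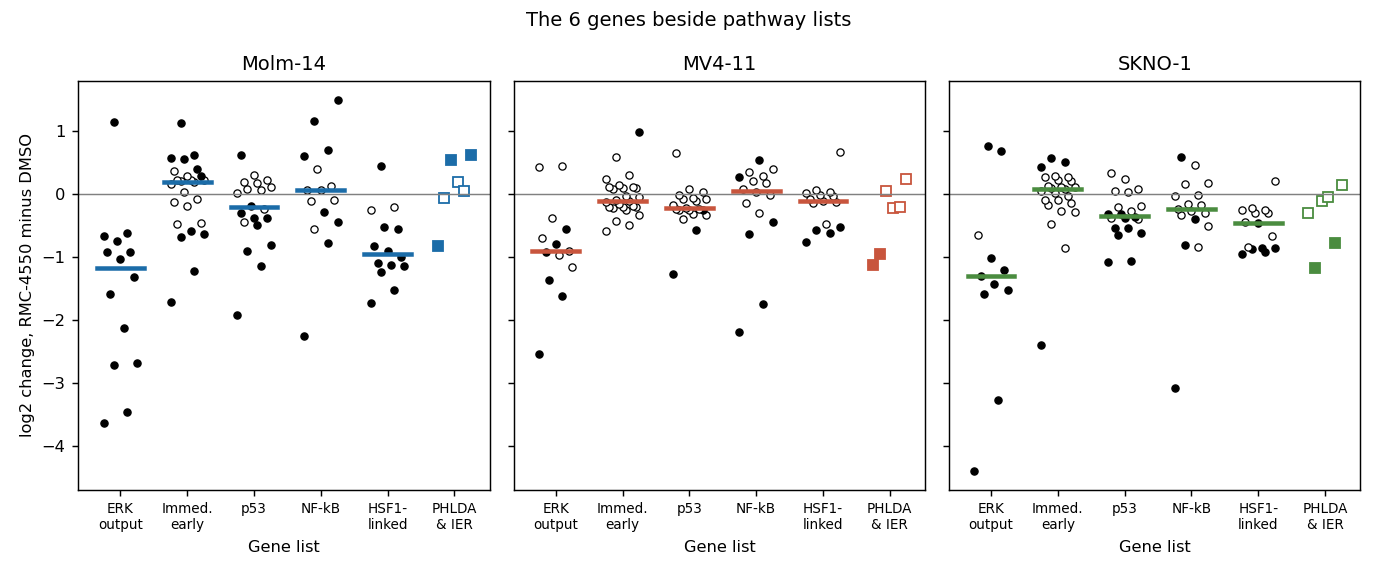
The log2 change with RMC-4550 (y axis) of each tested gene of 5 pathway lists (circles) and of the 6 members (squares), 1 panel per line; filled symbols were called and coloured bars are list medians. The ERK output medians lie at -1.18, -0.91 and -1.30, and the members spread on both sides of 0 in every panel.

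The comparison of SKNO-1 with the FLT3-ITD lines changed with the high-mitochondrial libraries. It called 1 member with all libraries, where 486 of 12792 genes tested were called. Given a covariate for mitochondrial share it called 5 members, all but IER2. Calls over all genes rose too, to 2496 of 12792, so the rise was not particular to the members. Without the 4 libraries the difference was 0.63 or more in size for PHLDA1, PHLDA2 and IER3, and -0.46 and -0.32 for PHLDA3 and IER5. Members called in SKNO-1 itself went from 2 to 3 with the covariate, where calls over all genes went from 3969 to 7270 of 14670. None of the 4 high-mitochondrial libraries is a SKNO-1 library. The log2 changes there were the same with and without them (-0.30 for PHLDA1 and 0.15 for IER5). The fit takes 1 estimate of the spread over all 6 groups.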

How the data were processed

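RNA-seq was deposited by the authors as log2 values, the log2 of reads plus 0.5, scaled to a common library size (CPM), for 40184 Ensembl gene IDs (40069 with a symbol) in 18 libraries. The form was worked out from the values, which give back whole reads for 100.0% of low values within 0.1 read. The library sizes used for CPM were 0.8903 to 1.1128 times the read totals, lowest in Molm-14 and highest in SKNO-1. Levels compared between lines include this factor. Per the submitters' processing notes the tools were FastQC, STAR and limma with GRCh38; the counting tool and its use of strand are not given in the sources used here. There were 0 columns of other samples. From the deposited log2 values, group means over all 18 libraries were fitted with limma 3.58.1 (R 4.3.3, intensity trend, no replicate block), after a filter of 1 CPM, met in 3 or more libraries overall and also within the line tested. P-values were two-sided and adjusted by Benjamini-Hochberg over all genes tested. The limma fit was tried on simulated data, and the outcome of that trial is not given here.

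The members and lists were chosen with earlier results of these data known. Named genes were the members, IER5L, the neighbours of PHLDA2, the list genes called the same way in all 3 lines with the largest mean change (4 per list at most), and otherwise the largest called in a line. TP53INP1 was named outside this rule, as the p53 target called higher. Coordinates and lengths are from GENCODE 29. Alternatives were another pseudocount, filters, scalings, voom weights, fits of the tested lines alone, a replicate block, the mitochondrial share as a covariate, and leaving out libraries. Library totals varied little, and the members with the fewest reads, PHLDA2 and IER3 in SKNO-1, are the least precise. A few marker and similarity results are not reported here.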

Additional observations from a re-analysis of the deposited data

Results flagged for a closer look

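For PHLDA1 the response of SKNO-1 differed from that of the FLT3-ITD lines, averaged, by 0.677 on the log2 scale (limma adjusted p 0.045), a test of the difference itself. That call was lost on leaving out any of 15 of the 18 libraries (differences from 0.58 to 0.75), with no filter and with a replicate block. For PHLDA3 the response of Molm-14 differed from that of MV4-11 by 0.4991 (limma adjusted p 0.017), by the same kind of test. That call was lost with no filter, in a fit of those lines alone and without MV4-11 DMSO replicate 1 (0.43). In the first comparison SKNO-1 is also the line grown with GM-CSF. In the second, 4 libraries of these lines had over 10% mitochondrial reads.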

How the results depend on the processing

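The 48 gene values were recomputed under 28 alternatives each, and 1253 of those values kept direction and call, 28 lost a call, 28 gained one and 31 changed sign. No value that was called in the reported fit changed sign. Members called in Molm-14 (3) and in SKNO-1 against Molm-14 (6) did not change in number. In MV4-11 the 2 calls became 1 in a fit of that line alone and 1 to 3 without single libraries. In SKNO-1 the 2 became 0 in limma with a mean of at least 5 CPM, since PHLDA2 and IER3 were then not tested. They became 3 in a fit of that line alone or with the covariate, and 1 to 2 without single libraries. In that fit and with the covariate 8451 and 7270 genes were called, against 3969 in the reported fit. For SKNO-1 against the FLT3-ITD lines the 1 call became 0 in limma with no filter, 5 with the covariate and 0 to 2 without single libraries. With the covariate 2496 genes were called in this comparison, against 486 in the reported fit. For Molm-14 against MV4-11 responses the 1 became 2 with log2(CPM + 1), voom weights or the covariate, 0 in limma with no filter or with those lines alone, and 0 to 4 without single libraries. DMSO levels of these lines gave 3 calls, 2 to 4 over the other alternatives and 3 to 5 without single libraries. For calls that were lost the cause was not tested.

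The labels give each group replicates 1 to 3 without saying that a number is shared, and same-numbered libraries deviated together with r from -0.05 to 0.00 in Molm-14, -0.40 to 0.59 in MV4-11 and 0.01 to 0.13 in SKNO-1. With a replicate block the PHLDA1 difference of SKNO-1 (0.68) was no longer called, leaving 0 calls there in limma, and no other member's call changed.

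Changes of sign were all in values not called in the reported fit, and 1 of them became a call: IER2 in DMSO levels of Molm-14 against MV4-11 without the high-mitochondrial libraries (0.207, limma adjusted p 0.025). Quantile normalization gave 0.0824 for PHLDA2 and -0.0368 for IER3 in Molm-14, 0.0157 for PHLDA3 and 0.0841 for IER2 in SKNO-1, and 0.0293 for IER2 in SKNO-1 against the other lines; median-ratio scaling gave 0.0123 for IER2 in SKNO-1. With the covariate, IER2 was -0.0324 and IER3 -0.116 in Molm-14, -0.0229 and -0.0807 in Molm-14 against MV4-11 responses, and 0.141 and 0.0128 in DMSO levels of those lines. Without the high-mitochondrial libraries IER3 was -0.0514 in Molm-14, and IER2 and IER3 were 0.067 and 0.193 in MV4-11, -0.0426 and -0.244 in Molm-14 against MV4-11 responses, and 0.207 and 0.199 in DMSO levels, where PHLDA2 was 0.0927. In DMSO levels of SKNO-1 against MV4-11, PHLDA1 was -0.200 and -0.0865 and IER5 0.0132 and 0.0423 in these settings. Without single libraries, ranges crossing 0 were -0.196 to 0.0198 for PHLDA2 and -0.093 to 0.206 for IER3 in Molm-14, -0.0217 to 0.115 for PHLDA3 in MV4-11, and -0.103 to 0.0799 for IER2 in SKNO-1 against the other lines.

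Counts over all genes moved as well. MV4-11 had 2045 calls, 674 in its own fit, 5054 with the covariate and 3897 without the high-mitochondrial libraries. SKNO-1 had 3969, and 8451, 7270 and 7818 in those settings, and median-ratio scaling split it into 1969 higher and 1935 lower, against 1588 and 2381. SKNO-1 against the other lines had 486, 2496 and 2356 with the last 2 settings, and Molm-14 against MV4-11 responses had 2620, and 1149 with those lines alone. Without single libraries the ranges were 1177 to 3005, 2792 to 4886, 268 to 704 and 1395 to 5873 for these 4 comparisons.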
